A study of Mus musculus with 24 samples.

Results

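The mouse liver transcribes many long noncoding RNAs (lncRNAs) from the stretches between its protein-coding genes, and those that reached a low minimum of abundance are described here. They are the entries whose names begin with NC_INTER in the authors' deposited table, chosen by their own group values: the highest of the 4 had to reach 0.5 TPM (a transcript's share of the library, normalised for length). This rule kept 3365 of 42910 intergenic lncRNA features, out of 75794 features of all kinds. A further 14786 intergenic features were listed at 0 in all 4 groups. The features just inside the minimum were NC_INTER_C11_9732, NC_INTER_C2_1124 and NC_INTER_C15_27405, with highest values of 0.5001, 0.5002 and 0.5003 TPM. Those just outside were NC_INTER_C12_21755, NC_INTER_C13_23209 and NC_INTER_C5_4590, with highest values of 0.4996, 0.4996 and 0.4995 TPM.

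Liver RNA was sequenced after polyA selection from 24 adult Ghr fl/fl mice on the C57BL/6 strain, 6 in each of 4 groups, aged 10 to 12 weeks and on chow, 7 days after injection of adeno-associated virus (AAV8). Every vector carried the thyroxine-binding globulin promoter (TBGp), which is active in hepatocytes, and every mouse received a total of 3.5 in units of 1e+11 genome copies. Control mice received the Null vector, which carries no transgene. The aHepGHRkd mice received Cre at 1.5 in that unit, which deletes the floxed segment of Ghr, the gene of the growth hormone receptor, in hepatocytes. The aHepGHRkd_rIGF1 mice received Cre at 1.5 and rat IGF1 at 2.0, and the aHepGHRkd_STAT5bCA mice received Cre at 1.5 and constitutively active STAT5b at 0.75. All samples are labelled male, while the treatment protocol also mentions females, and the livers were not sorted into cell types although the label says hepatocyte.

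Growth hormone binds its receptor on hepatocytes and activates the transcription factor STAT5b, which binds DNA at a motif of the form TTCNNNGAA. In mice the hormone is released in pulses in males and more steadily in females, and many liver genes, noncoding ones included, differ in expression between the sexes as a result. IGF1 is the circulating growth factor that the liver makes in response. An intergenic lncRNA may be an independent transcript, may share a promoter with a coding gene, or may be the unannotated end of that gene's own transcript.

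All TPM values, ratios and p-values below are those of the authors' deposited table, which gives 1 value per group and none per animal, so no spread between mice can be shown and the depth per library is unknown. The deposited p was read as adjusted over all features, and a value under 0.05 is what "called", "rose" and "fell" mean here. Where 4 values stand in a row, they are for Control, then aHepGHRkd, then the rIGF1 group, then the STAT5bCA group. In the authors' deposited table Ghr itself was at 180, 55.1, 58.4 and 49.4 TPM, with a ratio of aHepGHRkd over Control of 0.302 (adjusted p = 1e-60). None of the 20 marker genes of Kupffer, endothelial, stellate, cholangiocyte and lymphoid cells was called in any comparison. The summed stellate markers were 55.8, 53.4, 83.2 and 50.2 TPM, the summed Kupffer markers 52.3, 66.8, 64.2 and 69.5, and their part in the values below was not tested. Of the 5 hepatocyte markers, 1 was called higher and 1 lower in aHepGHRkd. In RNA from whole liver, fewer cells of a type and less RNA per cell cannot be told apart.

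Among the 3365 features, RefSeq pairs 209 with at least 1 promoter by gene symbol, chromosome and strand. The 4 promoters below were chosen after the values were seen, because each belongs to a named lncRNA at a locus described later. They are RefSeq sequences on GRCm38.p6, 300 bases long, from 250 bases before to 50 bases after a transcript start, and capitals mark TTCNNNGAA. Gm46545 lies near Bcl6 (chr16:24082641-24082940, minus strand) and fell in aHepGHRkd. Gm35611 lies near Cebpa (chr7:35085957-35086256, plus strand, the first of 3 listed starts) and also fell. Gm33447 (chr13:97375930-97376229, plus strand) and F730035M05Rik (chr12:70227591-70227890, plus strand) rose.
Gm46545: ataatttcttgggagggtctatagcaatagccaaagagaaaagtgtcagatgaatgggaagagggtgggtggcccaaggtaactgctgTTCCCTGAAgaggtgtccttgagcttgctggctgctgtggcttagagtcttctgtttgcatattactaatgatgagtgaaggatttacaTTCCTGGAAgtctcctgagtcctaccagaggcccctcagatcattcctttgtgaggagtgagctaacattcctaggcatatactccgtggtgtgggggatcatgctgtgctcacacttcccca
Gm35611: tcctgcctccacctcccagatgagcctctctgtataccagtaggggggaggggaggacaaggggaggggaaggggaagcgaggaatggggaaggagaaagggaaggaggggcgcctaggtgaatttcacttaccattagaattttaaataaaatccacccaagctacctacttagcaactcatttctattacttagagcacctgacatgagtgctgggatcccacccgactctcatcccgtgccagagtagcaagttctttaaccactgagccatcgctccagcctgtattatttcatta
Gm33447: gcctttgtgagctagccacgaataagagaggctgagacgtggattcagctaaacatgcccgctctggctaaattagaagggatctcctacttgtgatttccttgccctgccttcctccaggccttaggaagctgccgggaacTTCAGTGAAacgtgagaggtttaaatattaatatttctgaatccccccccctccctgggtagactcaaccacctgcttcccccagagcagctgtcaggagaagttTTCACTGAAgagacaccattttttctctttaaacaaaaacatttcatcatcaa
F730035M05Rik: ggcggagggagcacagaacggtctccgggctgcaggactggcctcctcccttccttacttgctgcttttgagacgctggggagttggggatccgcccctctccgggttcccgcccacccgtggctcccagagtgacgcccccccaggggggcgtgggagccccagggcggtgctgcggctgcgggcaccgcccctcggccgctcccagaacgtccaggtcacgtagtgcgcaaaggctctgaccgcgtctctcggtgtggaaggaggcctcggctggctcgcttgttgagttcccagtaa
The promoters of Gm46545 and Gm33447 each hold 2 matches and those of Gm35611 and F730035M05Rik hold none. The motif is its own reverse complement, so both strands were searched at once. It was present in 8.30% of all 32851 RefSeq promoters of this length and in 16 of the 299 promoters of the 209 matched features (5.35%). By call, it was in 8 of 62 promoters of features that fell in aHepGHRkd, in 2 of 11 of features that rose there, in 4 of 22 of features that rose with STAT5bCA, and in 6 of 221 promoters of features called in no comparison. The 4 belong to Gm30262 and Gm46545 and are among the 8. Promoters of 1 gene with several starts overlap, so these counts are not of independent sequences, and a match is not a binding site.

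The features were mostly short, of low abundance and close to genes. Their median exonic length was 1243 bp, with a range from 200 to 529607 bp, and 2947 had a single exon. In the authors' deposited table their median level was 0.772, 0.741, 0.815 and 0.753 TPM, against a median of 8.48 to 9.44 TPM for coding features at the same minimum. Together they made up 1.33%, 1.27%, 1.40% and 1.27% of all TPM in that order. A total of 1808 features reached 0.5 TPM in all 4 groups and 741 in a single group. The median distance to the nearest coding gene was 1582 bp, against 11784 bp for the intergenic features below the minimum. For 2103 features (62.5%) the nearest coding gene was under 5 kb away, and for 392 it was 50 kb or more away. A gene name was given for 357.

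A few features held much of the summed level, and none of the 10 with the highest means was called in any comparison. Of the 3365 features, 6.89%, 0% and 4.40% were called with loss of the receptor, rIGF1 and STAT5bCA. Of all features at the minimum, 5.96%, 0.0262% and 3.51% were called, so 0 of 10 does not set abundant features apart. NC_INTER_C6_41628 was listed at 1479, 1393, 1805 and 1412 TPM. NC_INTER_C3_35283 lay between 1234 and 1453 TPM, and NC_INTER_C11_21411 was highest at 1293 TPM, with rIGF1. All 3 are single exons of 264 to 481 bp, and whether they share reads with copies elsewhere in the genome was not tested, since no mm9 genome was used. Next to a liver gene lay NC_INTER_C3_37150 at 192, 190, 187 and 159 TPM, 60 bp past the end of Uox (urate oxidase) on the other strand. NC_INTER_C19_15055, at 128, 149, 167 and 127 TPM, lay 73 bp past Abcc2, a canalicular export pump, also on the other strand.

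Of 53 well-known noncoding RNA names, 16 were among the features, and 1 of them was called, in aHepGHRkd over Control. In that comparison 6.89% of the 3365 features and 5.96% of all features at the minimum were called. Malat1, a nuclear speckle RNA, was at 86.4, 102, 114 and 87.1 TPM in the authors' deposited table. Neat1, the scaffold of paraspeckles, was at 12.7, 19.6, 15.6 and 17.1 TPM (adjusted p = 0.318 for aHepGHRkd over Control). Norad was at 12.6, 13.8, 15.8 and 12.0 TPM and Tug1 at 4.42, 4.34, 4.18 and 4.25 TPM. Of the small nucleolar RNA host genes, Snhg12 was at 4.78, 4.70, 4.53 and 4.74 TPM and Snhg11 at 2.41, 1.58, 1.62 and 1.68 TPM (adjusted p = 0.698). Rmrp, the RNA of a ribonuclease, was at 0.114, 0.622, 0.695 and 0.999 TPM and was not called. Jpx, an activator of Xist, was at 0.527, 0.350, 0.399 and 0.342 TPM and fell in aHepGHRkd (ratio 0.661, adjusted p = 0.00855). It passed the minimum through Control alone, so it had to be lower elsewhere.

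Loss of the receptor was followed by more falls than rises among the intergenic lncRNAs. In aHepGHRkd over Control, 179 features fell and 53 rose, 6.89% of the 3365. The same call was made for 1.79% of the 75794 features in all and for 5.96% of all 19071 features at the minimum. By direction, 5.32% of the intergenic features fell, against 3.70% of all features and 3.22% of coding features at the minimum, and 1.58% rose, against 2.27% and 2.76%. The other lncRNA classes were similar in falls. At the same minimum, 4.99% of antisense and 5.21% of intragenic lncRNA features fell, and 1.79% and 0.694% rose. The median log2 ratio was -0.06 for the intergenic features and 0.02 for all features at the minimum. A feature that passed the minimum through Control alone had to be lower elsewhere, so these shares are a description. Among the 1808 features at 0.5 TPM or more in all 4 groups, 71 fell (3.93%) and 27 rose (1.49%), against 3.31% and 2.31% of all 15999 features that met that stricter minimum. The ratios of the called features by level are in the plot of log2 ratio against mean TPM.

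**Figure D1:**
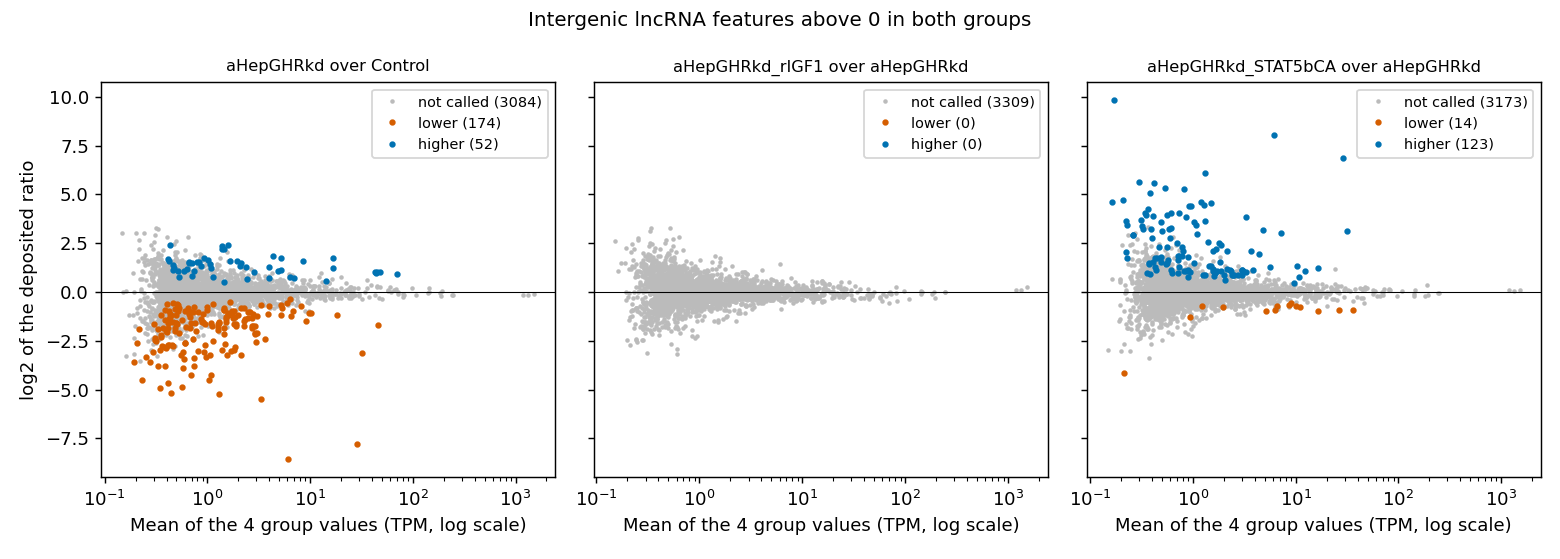
Log2 of the deposited ratio (y axis) against the mean of the 4 group values in TPM (x axis, log scale) for each intergenic lncRNA feature above 0 in both groups of a comparison. Called features are coloured by direction: most called features lie below 0 for aHepGHRkd over Control, above 0 for STAT5bCA, and there are 0 for rIGF1.

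The largest falls included abundant features of the Control liver and features far from any coding gene. NC_INTER_C12_10880 (mm9 chr12:105316130-105318954, minus strand) was at 75.2, 0.339, 0.525 and 38.7 TPM in the authors' deposited table. It was high in Control and with STAT5bCA and under 1 TPM in the other two groups, with a ratio of 0.00453 in aHepGHRkd (adjusted p = 5.17e-67). Its neighbour NC_INTER_C12_22922, on the same strand, went from 14.6 to 0.0310 TPM (ratio 0.00263, adjusted p = 1.4e-30) and stood at 0.102 with rIGF1 and 9.71 with STAT5bCA. The nearest coding gene, Serpina5, is a protease inhibitor gene listed at 0.104 TPM in Control and 0.00616 in aHepGHRkd (adjusted p = 0.231), and the nearest one that reached 1 TPM, Serpina12, lies 33477 bp from NC_INTER_C12_10880.

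A cluster on chromosome 18 downstream of Eif1a, a translation initiation factor gene, held 6 features that fell. NC_INTER_C18_14479 (mm9 chr18:46797148-46807305, minus strand) was at 9.72, 0.217, 0.189 and 3.03 TPM, a ratio of 0.0222 in aHepGHRkd (adjusted p = 9.16e-123). NC_INTER_C18_14478, which overlaps it on the other strand, was at 3.78, 0.102, 0.0911 and 1.21 TPM (ratio 0.0270, adjusted p = 2.75e-89). Eif1a itself was at 28.9 TPM in Control and 32.3 in aHepGHRkd (adjusted p = 1). The coding gene was uncalled where its noncoding neighbours fell. On chromosome 3, far from any coding gene, NC_INTER_C3_37185 was at 3.36 TPM in Control, listed at 0 in aHepGHRkd and aHepGHRkd_rIGF1, and at 0.322 with STAT5bCA (adjusted p = 9.36e-08 for the fall). The nearest coding gene there, Adgrl2, is 706186 bp away.

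Further falls were compared with the nearest coding gene one by one. NC_INTER_C5_4337 and NC_INTER_C5_4336 fell from 2.45 to 0.0757 TPM and from 2.05 to 0.0983 TPM (adjusted p = 3.87e-07 and adjusted p = 1.54e-14), about 32 kb from Ugt2b38, a glucuronosyltransferase gene that fell too (ratio 0.196, adjusted p = 1.87e-22). NC_INTER_C7_43880 fell from 1.37 to 0.0439 TPM (ratio 0.0346, adjusted p = 1.47e-38), whereas the nearest coding gene Sult2a7, a sulfotransferase, rose from 1.52 to 10.2 TPM (adjusted p = 1.31e-09). NC_INTER_C5_41523, chosen after its values were seen as a feature above 10 TPM, was at 57.9, 6.76, 5.57 and 56.5 TPM (ratio 0.116, adjusted p = 3.28e-44). It lies 785 bp past Urad, a uric acid breakdown enzyme, on the same strand, and Urad was at 92.2 TPM in Control, 12.2 in aHepGHRkd and 86.5 with STAT5bCA (ratio 0.131, adjusted p = 1.24e-66). NC_INTER_C7_43875, 6 bp from Sult2a8, was at 102, 32.0, 30.3 and 20.7 TPM (ratio 0.310, adjusted p = 1.27e-06), low in all 3 groups given Cre.

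The rises were smaller. F730035M05Rik (NC_INTER_C12_10620), which starts 105 bp from the liver glycogen phosphorylase gene Pygl on the other strand, was at 0.369 TPM in Control, 1.86 in aHepGHRkd, 2.06 with rIGF1 and 1.28 with STAT5bCA (ratio 5.02, adjusted p = 1.98e-05). The feature NC_INTER_C12_10621, which overlaps it on the strand of Pygl, had a ratio of 5.35 (adjusted p = 9.04e-06). Pygl had a ratio of 1.11 (adjusted p = 1). The most abundant of the 10 largest rises was NC_INTER_C4_38963 near Ahdc1, at 6.60, 22.5, 26.4 and 11.1 TPM (ratio 3.35, adjusted p = 2.15e-15). It was lowest in Control and lower with STAT5bCA than in aHepGHRkd (ratio 0.503, adjusted p = 0.00477). Ttc39aos1, which starts 65 bp from Ttc39a, rose from 0.449 to 1.52 TPM (ratio 3.32, adjusted p = 0.0251), and Ttc39a rose as well (ratio 2.70, adjusted p = 0.019). Gm33447 (NC_INTER_C13_11628) was at 0.309, 0.882, 1.08 and 0.584 TPM (ratio 2.78, adjusted p = 3.46e-05).

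**Figure D2:**
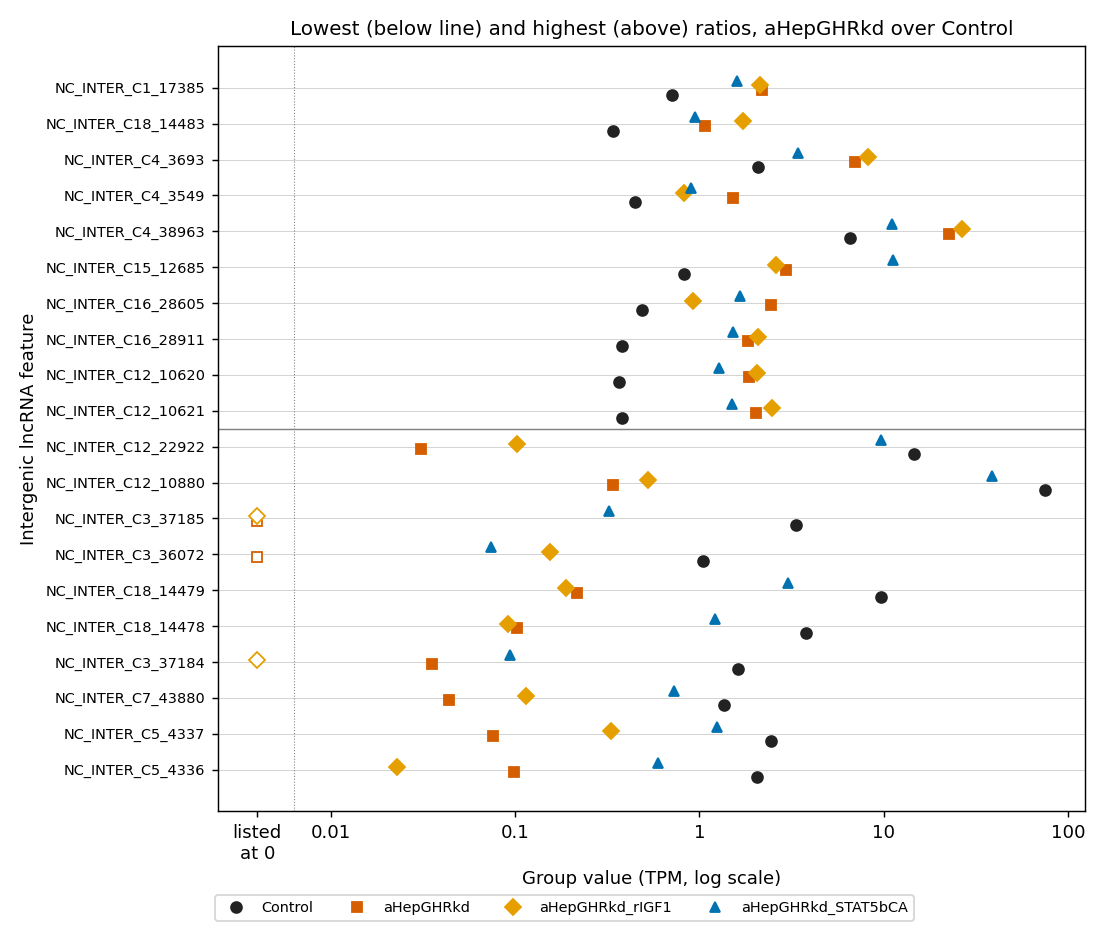
Group values in TPM (x axis, log scale, with values of 0 in a separate column and open symbols) of the 10 called features with the lowest and the 10 with the highest ratio of aHepGHRkd over Control that reached 1 TPM in either group; 1 symbol per group. Control values lie right of the aHepGHRkd values below the line and left of them above it. The aHepGHRkd_STAT5bCA values of NC_INTER_C12_10880 (38.7 TPM) and NC_INTER_C12_22922 (9.71 TPM) lie between those of aHepGHRkd and Control (75.2 and 14.6 TPM in Control).

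Several falls and rises came in groups of neighbours. When called features within 50 kb of each other were counted once, the 179 falls lay at 114 loci and the 53 rises at 39. Beside the chromosome 18 cluster, 5 features fell on chromosome 13 between Carmil1 and Cmah, with ratios from 0.0986 to 0.184. Another 5 fell on chromosome 16 between Bcl6 and Lpp, with ratios from 0.106 to 0.325. Near the pentraxin genes on chromosome 1, 4 features beside Apcs fell, with ratios from 0.252 to 0.439, and 3 beside Crp, with ratios from 0.320 to 0.351. Features nearest to Cps1, the first enzyme of the urea cycle, fell as well (NC_INTER_C1_278, NC_INTER_C1_280, NC_INTER_C1_16210 and NC_INTER_C1_16212). Of these, NC_INTER_C1_16210 went from 1.81 to 0.171 TPM (ratio 0.0966, adjusted p = 1.06e-13). NC_INTER_C2_2066, 286 bp from Pck1 (the gluconeogenic enzyme phosphoenolpyruvate carboxykinase), was at 6.90, 1.16, 1.36 and 2.44 TPM (ratio 0.168, adjusted p = 1.74e-27). The largest group of rises was 4 features near Opn4 on chromosome 14, with ratios from 2.70 to 2.92.

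For some features that fell in aHepGHRkd the nearest coding gene encodes a transcription factor of the liver. Those given with 4 group values below lay 2204 to 141728 bp from it. All were picked after their values were seen, and features near such genes that did not fall were not counted. Gm46545 (NC_INTER_C16_13168), 85304 bp upstream of Bcl6, was at 4.18 TPM in Control, 0.445 in aHepGHRkd, 0.638 with rIGF1 and 0.986 with STAT5bCA (ratio 0.106, adjusted p = 2.88e-41). Another feature nearest to Bcl6, NC_INTER_C16_13171, had a ratio of 0.106 too. Bcl6, a repressor that binds many STAT5 sites in liver, moved the other way, from 6.03 to 16.6 TPM (ratio 2.74, adjusted p = 3.35e-08). At Onecut1, Gm28622 (NC_INTER_C9_8097) was at 0.866, 0.131, 0.107 and 2.68 TPM (ratio 0.152, adjusted p = 6.37e-10) and Gm16551 (NC_INTER_C9_8104) at 0.498, 0.126, 0.126 and 0.835 TPM (ratio 0.252, adjusted p = 1.43e-21). Both were lowest in the aHepGHRkd and rIGF1 groups and highest with STAT5bCA, and Onecut1 fell in aHepGHRkd (ratio 0.345, adjusted p = 0.000135). A further feature nearest to Onecut1, NC_INTER_C9_48710, fell from 0.587 to 0.0379 TPM in aHepGHRkd (adjusted p = 0.0149). With STAT5bCA it was at 0.377 TPM, below Control, and was not called against aHepGHRkd (adjusted p = 0.179). Gm35611 (NC_INTER_C7_44276) near Cebpa was at 0.710, 0.0415, 0.109 and 0.451 TPM (ratio 0.0732, adjusted p = 1.84e-05), while Cebpa had a ratio of 0.713 (adjusted p = 0.0546). NC_INTER_C7_44275, also nearest to Cebpa, had the same ratio of 0.0732. Whether the reads at the Bcl6 and Cebpa loci come from the named lncRNA or from the other feature was not tested. Beyond Foxa2, NC_INTER_C2_1829 was at 14.3, 6.82, 8.42 and 9.17 TPM (ratio 0.475, adjusted p = 1.02e-10), and Foxa2 had a ratio of 0.823 (adjusted p = 0.862).

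No intergenic lncRNA was called in the comparison with rat IGF1. The Igf1 entry was not called either, at 26.2 TPM in aHepGHRkd and 114 with rIGF1 (ratio 3.89, adjusted p = 0.946), so 0 calls do not show that levels were equal. Whether reads from the rat IGF1 vector are counted in that entry was not tested. In aHepGHRkd_rIGF1 over aHepGHRkd, 0 features rose and 0 fell by the authors' edgeR test, and the smallest deposited p among the 3365 was 0.0751. Of all features in it, 0.00792% were called, and 0.0262% of those at the minimum. An unadjusted p is not in the table, and 92 of the features had a deposited p under 1. The median log2 ratio was 0.04 for the intergenic features and 0.0011 for all features at the minimum. Among features named above, NC_INTER_C12_10880 had a ratio of 1.44, NC_INTER_C18_14479 a ratio of 0.807, Gm46545 a ratio of 1.33 and NC_INTER_C5_41523 a ratio of 0.757, each with adjusted p = 1. More features had their highest value in the rIGF1 group (1224) than in Control (923), STAT5bCA (635) or aHepGHRkd (583). The deposited ratios of this comparison also differ from the ratios of the TPM values by a median of 0.10 on the log2 scale.

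Constitutively active STAT5b was followed by more rises than falls. In aHepGHRkd_STAT5bCA over aHepGHRkd, 134 features rose and 14 fell, 4.40% of the 3365. The call was made for 1.21% of the 75794 features in all and for 3.51% of those at the minimum. By direction, 3.98% of the intergenic features rose, against 2.90% of all features and 2.65% of coding features at the minimum, and 0.416% fell, against 0.613% and 0.687%. Antisense lncRNA features at the minimum had a similar share of rises (3.78%), and 2.78% of intragenic ones rose. In these classes 0.872% and 0% fell. The rises lay at 101 loci and the falls at 9. A feature that passed the minimum through the STAT5bCA group alone had to be higher there, so these shares are a description. Among the 1808 features at the minimum in all 4 groups, 40 rose (2.21%) and 13 fell (0.719%), against 2.21% and 0.650% of all 15999 features that met that stricter minimum. No higher share of rises was seen there. This comparison and the one with Control share the aHepGHRkd libraries, so a feature's values in both are given side by side and their overlap was not used as a result.

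Some rises were of features that were at or near 0 elsewhere. NC_INTER_C10_18314 (mm9 chr10:33484810-33486173, plus strand) was listed at 0 in Control and aHepGHRkd, at 0.0220 TPM with rIGF1 and at 33.2 with STAT5bCA (adjusted p = 7.79e-108). It lies 57 bp past Sult3a2, a sulfotransferase gene that was also listed at 0 in Control and aHepGHRkd and stood at 43.5 TPM with STAT5bCA. NC_INTER_C5_41475, 379 bp past the cytochrome P450 gene Cyp3a16, was listed at 0 in the other 3 groups and at 7.31 TPM with STAT5bCA (adjusted p = 7.33e-19). Cyp3a16 was at 6.39, 14.2 and 85.9 TPM in Control, aHepGHRkd and aHepGHRkd_STAT5bCA. On chromosome 2, 77812 bp from Pax1, the overlapping pair NC_INTER_C2_34538 and NC_INTER_C2_34539 was listed at 0 in 3 groups and at 1.03 and 1.04 TPM with STAT5bCA. NC_INTER_C15_12595 was at 0.00142 TPM in Control, 0.000406 in aHepGHRkd and 0.683 with STAT5bCA (adjusted p = 6.89e-171), and its nearest coding gene A1bg rose from 0.228 to 600.0 TPM.

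Others rose from a level that loss of the receptor had lowered or from one not called lower in aHepGHRkd. NC_INTER_C12_22922 and NC_INTER_C12_10880 had ratios of 260.3 and 116 with STAT5bCA (adjusted p = 3.84e-61 and adjusted p = 7.67e-93). NC_INTER_C5_41523 beside Urad had a ratio of 8.59 (adjusted p = 3.08e-39), and Urad one of 7.36 (adjusted p = 5.08e-53). By contrast, NC_INTER_C3_37039, 246925 bp from Tet2, was at 3.89, 2.52 and 3.23 TPM in Control, aHepGHRkd and rIGF1 and at 19.2 with STAT5bCA (ratio 8.07, adjusted p = 3.54e-14). NC_INTER_C5_40977, upstream of the transcription factor gene Tbx3, was at 9.75, 9.74, 10.4 and 19.9 TPM (ratio 2.13, adjusted p = 6.23e-07), and Tbx3 was not called (adjusted p = 1). NC_INTER_C12_22893, 73 bp from Serpina6 (corticosteroid-binding globulin), was at 0.116, 0.170, 0.390 and 4.09 TPM (ratio 24.2, adjusted p = 7.18e-21).

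The 14 falls with STAT5bCA were mostly shallow. Only 2 of them reached a 2-fold change. Of these, NC_INTER_C11_21665 was at 1.27, 1.32, 0.601 and 0.521 TPM (ratio 0.404, adjusted p = 0.0111). NC_INTER_C18_30760 and NC_INTER_C4_38016 had also fallen in aHepGHRkd, and fell again here with ratios of 0.602 and 0.676 (adjusted p = 0.0361 and adjusted p = 0.0482). NC_INTER_C8_47074, 6 bp past the carboxylesterase gene Ces2a, was at 6.98, 7.65, 6.45 and 3.86 TPM (ratio 0.526, adjusted p = 0.000147), and Ces2a fell as well (ratio 0.686, adjusted p = 0.000203). The overlapping pair NC_INTER_C17_29700 and NC_INTER_C17_29699 near H2-Q10, a liver-expressed class Ib histocompatibility gene, had ratios of 0.529 and 0.530 (adjusted p = 0.0278 and adjusted p = 0.0279). Upstream of the major urinary protein gene Mup3, 3 features fell with ratios from 0.591 to 0.624, and NC_INTER_C4_38022 was at 9.65, 12.1, 11.4 and 7.07 TPM (adjusted p = 0.000205). Mup3 had a ratio of 1.21 in this comparison (adjusted p = 1) and of 0.282 in aHepGHRkd over Control (adjusted p = 3.62e-24). Urinary protein genes are a family of near-identical copies, so reads in this region may be split among them.

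**Figure D3:**
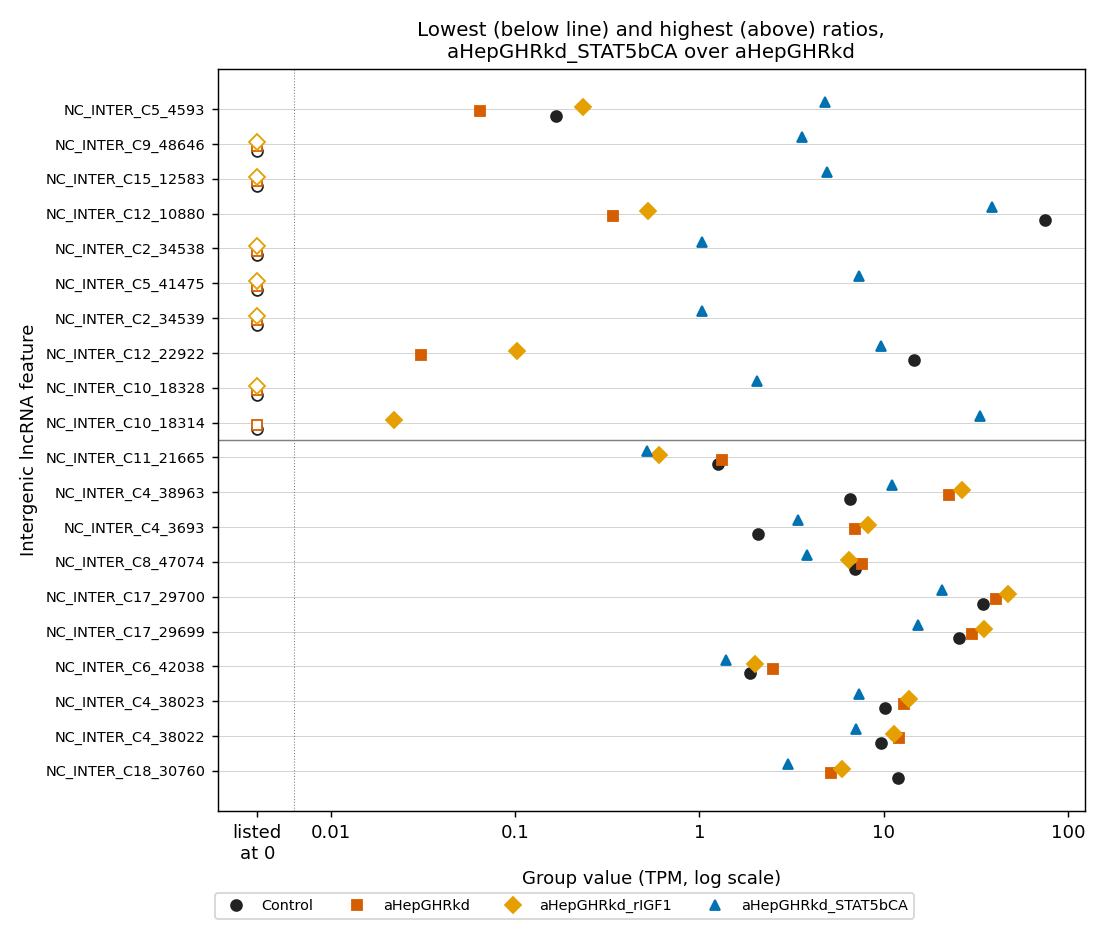
Group values in TPM (x axis, log scale, with values of 0 in a separate column and open symbols) of the 10 called features with the lowest and the 10 with the highest ratio of aHepGHRkd_STAT5bCA over aHepGHRkd that reached 1 TPM in either group; 1 symbol per group. Above the line, 6 features are listed at 0 in the other 3 groups, and NC_INTER_C10_18314 (33.2 TPM) has only the rIGF1 value of 0.0220 TPM beside it.

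Of the 31 coding genes listed as responsive to growth hormone or sex-biased in mouse liver, 7 rose and 19 fell in aHepGHRkd, 0 were called with rIGF1, and 19 rose and 3 fell with STAT5bCA. For 14 intergenic features the nearest coding gene was on this list, 11 genes in all. Of the 14, 5 fell and 0 rose in aHepGHRkd, where 3.70% of all features at the minimum fell, and 10 rose and 1 fell with STAT5bCA, where 2.90% rose. The list was chosen with earlier results of these data known. Some of the 10, such as NC_INTER_C5_4593 and NC_INTER_C10_9184 below, passed the minimum through the STAT5bCA group alone and had to be higher there. For both reasons these counts are a description. NC_INTER_C3_36400, 9746 bp from Selenbp2, was at 1.28, 0.0809, 0.0704 and 1.52 TPM, and Selenbp2 was at 446 TPM in Control and 18.7 in aHepGHRkd. NC_INTER_C3_35401, 733 bp past the oxysterol hydroxylase gene Cyp7b1 on the other strand, was at 1.00, 0.118, 0.172 and 2.38 TPM (adjusted p = 5.27e-13 for the fall and adjusted p = 2.99e-53 for the rise). Beside Cux2, a transcription factor gene more expressed in female liver, NC_INTER_C5_4593 was at 0.167, 0.0645, 0.234 and 4.82 TPM (ratio 67.6 with STAT5bCA, adjusted p = 4.88e-80). Near Socs2, which encodes a feedback inhibitor of growth hormone signalling, NC_INTER_C10_9184 was at 0.105 TPM in Control, 0.0630 in aHepGHRkd, listed at 0 with rIGF1 and at 1.22 with STAT5bCA (adjusted p = 2.68e-09). Not all neighbours moved together. NC_INTER_C16_13168 and NC_INTER_C16_13171, counted among the 5 falls and the 10 rises, moved against their nearest gene Bcl6. Bcl6 rose in aHepGHRkd (ratio 2.74) and fell with STAT5bCA (ratio 0.610). Both features had a ratio of 0.106 in aHepGHRkd, and whether they are separate transcripts was not tested. NC_INTER_C6_43541 near Slco1a1, an organic anion transporter gene, was at 1.15, 1.92, 2.07 and 1.10 TPM and not called. Slco1a1 fell from 147 to 3.20 TPM in aHepGHRkd.

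Called features lay beside a coding gene called in the same direction more often than uncalled ones did, as a count. In aHepGHRkd over Control, the nearest coding gene fell for 67 of the 179 features that fell (37.4%) and rose for 6, and it fell for 3.51% of the 3133 uncalled features. For the 53 features that rose, the nearest gene rose in 10 (18.9%), against 3.54% of uncalled features. With STAT5bCA the nearest gene rose for 60 of the 134 features that rose (44.8%), against 3.11% of uncalled ones, and it fell for 2 of the 14 that fell. By distance, with a nearest gene under 5 kb away, 41 of 81 falls in aHepGHRkd and 35 of 60 rises with STAT5bCA had a gene called the same way, against 26 of 98 and 25 of 74 with a gene 5 kb or more away. Within 5 kb the STAT5bCA counts also differed by side, with 27 of 31 rises downstream of the gene and 8 of 29 upstream, the latter a lower share than farther away. For the falls in aHepGHRkd the counts were 22 of 41 downstream and 19 of 40 upstream. Split at 50 kb, they were 58 of 138 and 9 of 41 for those falls and 49 of 106 and 11 of 28 for the STAT5bCA rises. No difference by distance or side was tested. The features and genes share their libraries and neighbouring features share a gene, so no test is given. The sources used here do not say if the authors counted by strand, and 104 of the 528 pairs of features that overlap on opposite strands had all 3 ratios within 2% of each other, so such pairs cannot be told apart as separate transcripts.

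**Figure D4:**
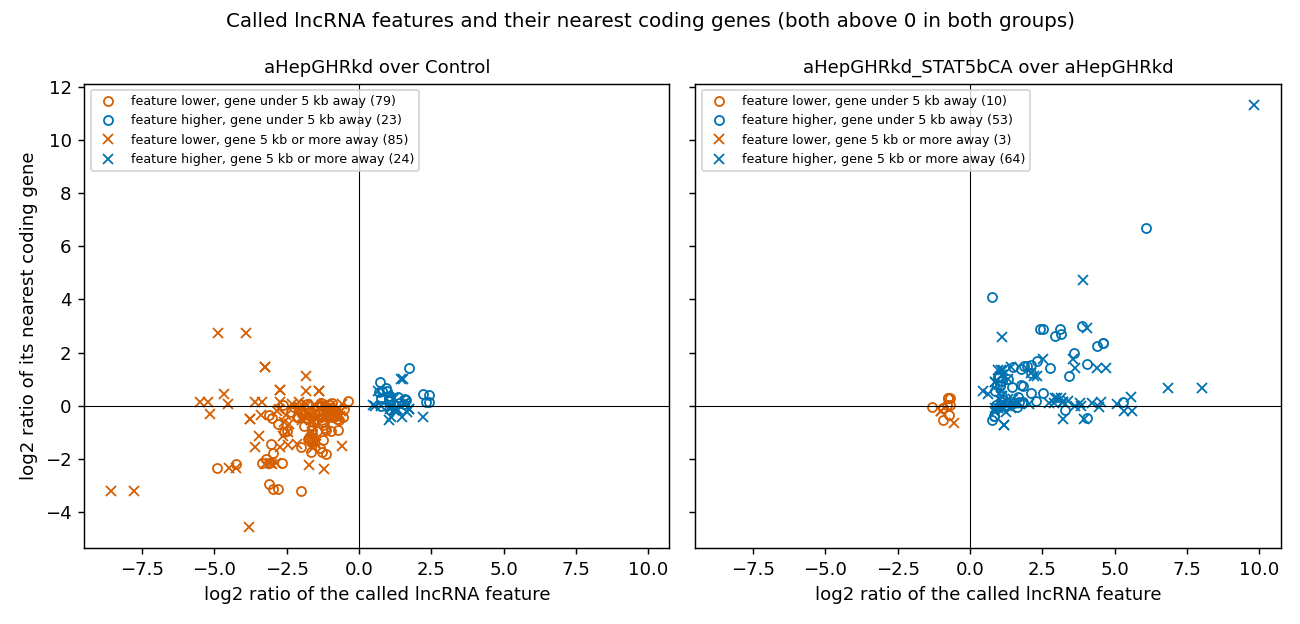
Log2 ratio of each called intergenic lncRNA feature (x axis) against that of its nearest coding gene (y axis), for aHepGHRkd over Control and for STAT5bCA over aHepGHRkd, where both were above 0 in both groups; circles are genes under 5 kb away and crosses genes 5 kb or more away. The medians given here are over genes above 0 in all 4 groups, whatever the level of the feature, so their set differs somewhat from the plotted one. Genes nearest to features that fell in aHepGHRkd have a median log2 ratio of -0.39 (166 features). Those nearest to features that rose with STAT5bCA have one of 0.49 (124 features). Many plotted genes lie near 0.

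**Figure D5:**
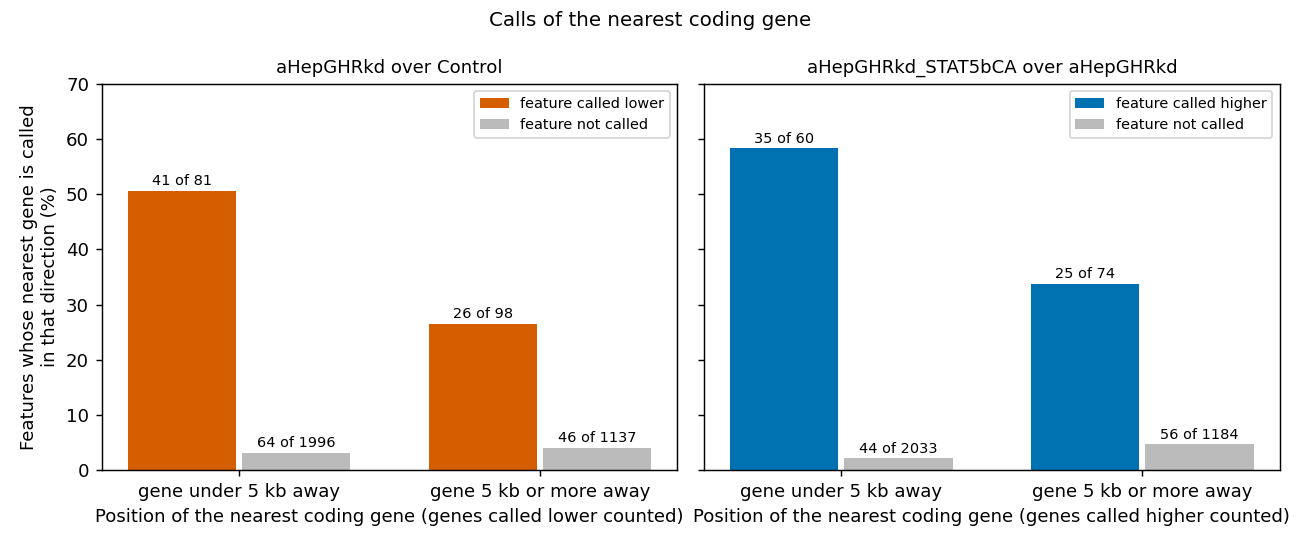
Share of features (y axis, %) whose nearest coding gene was called lower in aHepGHRkd over Control (left) or higher with STAT5bCA (right), by distance to that gene; coloured bars are features called in that direction, grey bars uncalled features, and the numbers above give the counts. The coloured bars stand at 41 of 81 and 35 of 60 for genes under 5 kb away, and at 26 of 98 and 25 of 74 farther away.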

How the data were processed

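Polyadenylated liver RNA was sequenced from 24 mice, and 1 deposited table was used, with 75794 features read (75798 in its header, 4 lines empty in the copy used). It holds exon-collapsed gene models on mm9. Per the submitters' processing notes, the authors' tools were STAR, featureCounts and edgeR, and the sources used here give no version of them. TPM values are 1 per group, as deposited by the authors. Per the file headers, the ratio is a linear fold between 2 groups that the authors took from edgeR. The p-value column deposited by the authors states no adjustment. It was read as Benjamini-Hochberg adjusted because it equals 1 for 69174, 75054 and 72384 features in the 3 comparisons. Such values do not tell this adjustment from other kinds, so the reading is an assumption. The header's counts were met apart from 575 up against 574 counted for STAT5bCA. They were recounted from the same column, so they cannot decide whether it is adjusted.

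No value per animal was given, so the test planned on counts per library was not run, depth per library is unknown, and no SD or n is given. Python 3.11.15 with pandas 2.3.3, numpy 2.4.6 and matplotlib 3.10.9 was used. The search for the nearest gene and the search for the motif were tested on simulated data, and the counting of calls was not. Intergenic features with a highest group value of at least 0.5 TPM were kept and called at a deposited p under 0.05. Named features are, per comparison, the 10 highest and 10 lowest called ratios at 1 TPM or more, the 10 highest means, known names, and those around the minimum, with the nearest coding gene by end-to-end distance. All other features named were chosen after their values were seen. The features and lists were chosen with earlier results of these data known. The groups come from the labels. The alternatives were other minimums, folds and p thresholds, overlap, and other neighbour rules.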

Additional observations from a re-analysis of the deposited data

How the results depend on the processing

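The number of features was 1720 at a minimum of 1 TPM and 12630 at 0.1 TPM. Among features that overlap no other feature, 17 rose and 65 fell in aHepGHRkd over Control, and 48 rose and 3 fell with STAT5bCA. At p under 0.01, 35 rose in aHepGHRkd and 5 fell with STAT5bCA, and at a fold of at least 2, 2 fell with STAT5bCA. Counting called features within 50 kb once, an alternative added after the data were seen, gave 114 falls in aHepGHRkd and 9 with STAT5bCA. The split of neighbours at 5 kb was also added then. Under 5 kb, the nearest gene was called the same way for 41 falls in aHepGHRkd, 35 rises and 1 fall with STAT5bCA. At 5 kb or more it was so for 3 rises and 26 falls in aHepGHRkd, and for 25 rises and 1 fall with STAT5bCA. These alternatives keep fewer or more features by construction. The rIGF1 comparison gave 0 calls under each alternative run. Each of these kept only features from the 3365 that already had 0 calls, so this outcome was fixed in advance. The minimum of 0.1 TPM was run for the number of features alone. With the ratio of TPM values in place of the deposited ratio, all 87 called ratios of named features kept their direction, with a largest difference of 0.90 on the log2 scale. No paired analysis was possible because the deposited values are per group. Leaving out a mouse could not be done for the same reason.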
